A study of Mus musculus with 4 samples.

Results

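The genes described here encode parts of the primary cilium, the centrosome and the machinery that builds motile cilia. They were chosen by symbol alone, as protein-coding genes of the RefSeq table of GRCm38.p6 whose symbols begin with Ift, Bbs, Cep or Dnaaf followed by a digit, together with Ttc8, Mkks, Arl6 and Alms1. The rule found 71 of 21779 protein-coding genes: 14 Ift genes, 11 BBS genes (the Bbs genes with Ttc8, Mkks and Arl6), 38 Cep genes, 7 Dnaaf genes and Alms1. RUVBL2, an AAA+ ATPase of chromatin remodelling and chaperone complexes, was mapped by chromatin immunoprecipitation and sequencing (ChIP-seq) in whole hypothalamus of wild-type (WT) male C57BL/J mice at 8 weeks of age, untreated as far as the labels say. The 4 libraries are 2 RUVBL2 ChIP libraries, numbered 1 and 2 here, and 2 input libraries of the same tissue and genotype without antibody. One peak list per ChIP library was analysed, taken by the sample it was deposited under; the peaks of replicate 2 are named Hyp3 although its title says Hyp2. The labels do not explain that difference, and no values of the input libraries were analysed here. The labels do not say whether a library holds 1 animal or a pool, or whether the numbers stand for separate animals, so the agreement of the libraries may be partly technical.

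The primary cilium is a single antenna-like projection that most neurons carry. Intraflagellar transport (IFT) trains carry cargo along it, the BBSome, a coat of BBS proteins, moves receptors in and out of it, and it grows from the mother centriole of the centrosome. Loss of BBSome function or of Alms1 causes obesity in humans and mice, and ciliary receptors of hypothalamic neurons take part in the control of feeding. Motile cilia, which in this tissue are carried by ependymal cells, also need axonemal dynein motors. Dnaaf proteins assemble these motors in the cytoplasm with HSP90 chaperone complexes of the kind to which RUVBL1 and RUVBL2 belong. The bulk chromatin of the hypothalamus mixes these cell types, so binding in few cells and weak binding in many cells cannot be told apart.

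The 2 lists held 3943 peaks in replicate 1 and 6403 in replicate 2, with median folds of 4.93 and 4.74 and median summit pileups of 16 and 22 reads. Overlaps of at least 1 bp joined them into 3111 shared regions. A gene was counted when the midpoint of a region or peak lay in its body widened by 3 kb on each side. The fold enrichment is the authors' own value for each peak, the summit pileup over the local background with 1 added to each. The bracketed 95% intervals are exact Poisson intervals of the pileup and cover counting error only. Peak ranks run from 1 for the smallest p in a list.

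Of the 71 genes, 17 (23.9%) held a shared region, against 17.2% of all protein-coding genes. All 17 had it within 3 kb of a gene end, where 16.0% of all protein-coding genes had one. The list of replicate 1, taken by itself, had a peak in 23 of the 71 (32.4%), against 20.9% of all protein-coding genes, and that of replicate 2 in 38 (53.5%), against 32.6%. Neither list had a peak in 27 of the 71 (38.03%), against 64.2% of all genes. No test was made of these differences, because genes are not replicates of a condition and the series has a single ChIP group. With peaks of a −log10 q of at least 5 only, 6 of the 71 genes (8.45%) held a shared region, against 8.50% of all protein-coding genes. Those 6 were Ift46, Mkks, Cep95, Cep350, Cep135 and Dnaaf5.

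**Figure D1:**
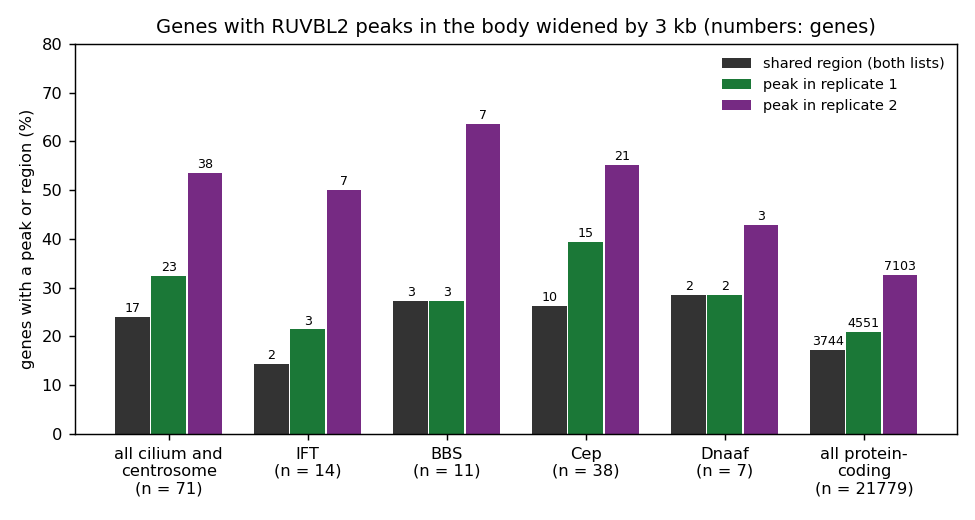
Share of genes (vertical axis, percent) with a shared region (black), a peak in replicate 1 (green) or a peak in replicate 2 (purple) in the body widened by 3 kb, for all 71 cilium and centrosome genes, their 4 families and all 21779 protein-coding genes; the number on each bar is the count of genes. Replicate 2 gives the highest bar in every set, and the share with a shared region runs from 14.3% of Ift genes to 28.6% of Dnaaf genes, against 17.2% of all protein-coding genes.

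The 4 families did not fall far apart in shared regions: 2 of 14 Ift genes (14.3%), 3 of 11 BBS genes (27.3%), 10 of 38 Cep genes (26.3%) and 2 of 7 Dnaaf genes (28.6%) held one, and Alms1 held none. With so few genes a family's share moves by many percentage points when 1 gene changes. In the list of replicate 2, shared peaks included, the counts were 7, 7, 21 and 3 genes, which is 50%, 63.6%, 55.3% and 42.9% of the families. In that of replicate 1 they were 3, 3, 15 and 2 genes. The Ift genes thus had the lowest share of shared regions of the 4 families, and the Dnaaf genes the lowest share in replicate 2.

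Promoter sequences of the best-ranked genes whose region covered an annotated start are shown for up to 2 genes per family, because the regions reached into these stretches. At Cep95 only the replicate 1 peak reached the stretch, and at Mkks only the replicate 2 peak. The sequences run from 250 bases before to 50 bases from the start, 5′ to 3′ on the gene's strand, and come from RefSeq on GRCm38.p6. Capitals mark matches, on either strand, to 5 motifs. GTTGCC is part of the X-box bound by RFX factors, the regulators of ciliary genes. The CCAAT box is bound by the factor NF-Y, and CCGGAAG is the core of sites bound by ETS factors. The letters CACGTG form an E-box, and those of GCGCATG are part of the site of NRF1.
Ift88, chr14:57423821-57424120, plus strand: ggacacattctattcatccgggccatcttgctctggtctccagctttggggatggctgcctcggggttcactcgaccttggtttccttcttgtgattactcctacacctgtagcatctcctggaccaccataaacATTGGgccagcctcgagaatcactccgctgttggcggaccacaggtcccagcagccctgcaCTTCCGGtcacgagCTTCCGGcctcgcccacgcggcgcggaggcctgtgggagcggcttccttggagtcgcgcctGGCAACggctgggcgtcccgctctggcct
Bbs4, chr9:59353459-59353758, minus strand: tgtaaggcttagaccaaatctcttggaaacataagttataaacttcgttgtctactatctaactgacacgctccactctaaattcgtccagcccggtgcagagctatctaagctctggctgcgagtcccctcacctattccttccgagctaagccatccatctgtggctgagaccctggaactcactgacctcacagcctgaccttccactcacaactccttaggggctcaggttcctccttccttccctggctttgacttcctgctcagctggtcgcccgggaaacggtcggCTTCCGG
Mkks, chr2:136891357-136891656, minus strand: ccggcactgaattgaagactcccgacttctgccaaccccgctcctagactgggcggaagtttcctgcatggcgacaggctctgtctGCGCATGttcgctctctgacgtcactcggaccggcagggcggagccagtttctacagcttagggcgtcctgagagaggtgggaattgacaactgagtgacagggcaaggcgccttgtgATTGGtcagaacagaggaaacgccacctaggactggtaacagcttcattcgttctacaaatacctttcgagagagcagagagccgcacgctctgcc
Cep95, chr11:106789002-106789301, plus strand: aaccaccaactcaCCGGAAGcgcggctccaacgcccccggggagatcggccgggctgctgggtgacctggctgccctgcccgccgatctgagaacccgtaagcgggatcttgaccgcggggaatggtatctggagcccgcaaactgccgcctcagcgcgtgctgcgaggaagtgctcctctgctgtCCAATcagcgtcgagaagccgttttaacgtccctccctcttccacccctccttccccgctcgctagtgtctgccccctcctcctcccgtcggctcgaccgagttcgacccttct
Cep135, chr5:76588449-76588748, plus strand: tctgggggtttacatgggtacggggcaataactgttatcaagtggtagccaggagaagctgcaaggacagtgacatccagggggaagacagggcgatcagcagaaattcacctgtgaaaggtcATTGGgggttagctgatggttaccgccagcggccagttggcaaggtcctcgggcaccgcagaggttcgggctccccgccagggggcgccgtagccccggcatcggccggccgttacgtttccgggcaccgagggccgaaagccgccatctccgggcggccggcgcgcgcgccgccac
Dnaaf5, chr5:139149985-139150284, plus strand: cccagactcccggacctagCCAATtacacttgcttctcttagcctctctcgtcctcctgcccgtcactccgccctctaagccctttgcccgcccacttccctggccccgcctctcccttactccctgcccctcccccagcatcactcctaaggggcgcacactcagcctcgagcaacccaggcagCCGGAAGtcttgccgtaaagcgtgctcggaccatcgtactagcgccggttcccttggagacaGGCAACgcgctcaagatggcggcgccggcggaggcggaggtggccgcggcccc

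No motif stood in all 6 windows, and most of the windows were rich in CG dinucleotides. The number of CG dinucleotides was 29 in Cep95, 27 in Cep135, 24 in Dnaaf5, 20 in Ift88, 18 in Mkks and 11 in Bbs4, whose window had the lowest GC content (53.0%). GTTGCC stood on the opposite strand in Ift88 and in Dnaaf5, in both cases close to the start. Ift88 also had a pair of ETS cores, the farther starting 54 bases before the start, and CCAAT stood in 5 of the 6 windows, all but that of Bbs4. No matches overlapped each other. A match is a description of the letters and not a bound site.

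Among the IFT genes, Ift88, a core subunit of the IFT-B train without which cilia do not form, held the region nearest its own start. Its region (chr14:57423237-57424362) covered the annotated start and had a fold of 4.62 (2.67 to 7.55) in replicate 1 and one of 6.91 (4.60 to 10.01) in replicate 2, from summit pileups of 14 and 26 reads. The summits lay 306 bp before the start in replicate 1 and 117 bp after it in replicate 2, 423 bp apart. With summits required to lie within 250 bp of each other, Ift88 was no longer counted. Its ranks were 2408 of 3943 and 1112 of 6403.

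Ift46, another IFT-B subunit, had the better ranks, 416 and 235, but at a distance. Its region (chr9:44767208-44767886) had a fold of 7.07 (4.55 to 10.6) in replicate 1 and one of 10.2 (7.19 to 13.9) in replicate 2 and pileups of 22 and 36 reads. Its midpoint lay 2909 bp outside the gene, 261 bp from an end of Arcn1, a subunit of the COPI vesicle coat. The summits lay 5357 bp (replicate 1) and 5310 bp (replicate 2) before the annotated Ift46 start, which is farther off than the gene end. With the body widened by 1 kb only, or with each region given to the nearest gene end, Ift46 was no longer counted and 1 of 14 Ift genes held a region.

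The other 12 Ift genes held no shared region, and 6 of them had a peak in 1 list. Ift140, a subunit of the IFT-A train that works in return transport, had a pair of peaks in replicate 1 and none in replicate 2. Their folds were 4.61 (2.66 to 7.53), with the summit 376 bp before the start, and 5.24 (3.13 to 8.32), with the summit 415 bp after it. In replicate 2 alone the IFT-B genes Ift20, Ift27, Ift52, Ift74 and Ift81 had peaks, with folds of 4.64, 3.63, 3.63, 5.57 and 4.75 in that order. By role, and among the Ift symbols only, 2 of 11 IFT-B genes and 0 of 3 IFT-A genes held a shared region, against 17.2% of all protein-coding genes. The IFT-A subunit Ttc21b, which has another symbol, held one. Ift172 was just outside the window, with the nearest peak 4503 bp away in replicate 1 and 4561 bp in replicate 2.

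Among the BBS genes the regions lay at Bbs4, Mkks and Bbs10. Bbs4 encodes a BBSome subunit that binds the centriolar satellite protein PCM1. The region at its start (chr9:59353178-59353624) had a fold of 4.76 (2.84 to 7.55) in replicate 1 and one of 6.37 (4.21 to 9.29) in replicate 2, from pileups of 16 and 25 reads. Both summits lay inside the gene, 209 and 134 bp after the start, and no other protein-coding gene end lay within 3 kb of the region. Of the 7 BBSome subunits among these symbols 1 held a shared region, Bbs4, against 17.2% of all protein-coding genes. Bbip1, a small BBSome subunit with another symbol, also held one. Bbs2, Bbs5 and Ttc8 had a peak in replicate 2 alone, and Bbs1, Bbs7 and Bbs9 had none.

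Mkks and Bbs10 encode chaperonin-like proteins that help the BBSome to assemble. The region at Mkks (chr2:136890748-136892222) joined a pair of replicate 1 peaks and a single wide replicate 2 peak. The folds were 5.55 (3.36 to 8.70) and 4.81 (3.06 to 7.23) for the replicate 1 peaks and 3.70 (2.57 to 5.18) in replicate 2. The summits stood 470 bp after and 648 bp before the Mkks start in replicate 1, and 525 bp before it in replicate 2. Slx4ip starts on the other strand, 193 bp from the Mkks start, and an annotated Slx4ip start was nearer than the Mkks start both to the best-ranked replicate 1 summit (282 bp) and to the replicate 2 summit (237 bp).

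Bbs10 had the weakest of the BBS regions (chr10:111298296-111299156), with a fold of 3.97 (2.20 to 6.70) in replicate 1 and one of 4.39 (2.58 to 7.06) in replicate 2 and pileups of 12 and 15 reads. Its ranks were 3521 of 3943 and 4789 of 6403, and its summits lay 551 bp apart on the 2 sides of the start. The third chaperonin-like gene, Bbs12, held no peak, the nearest lying 97956 bp away in replicate 2.

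Bbs2, a BBSome subunit whose loss causes obesity in mice, had a peak in replicate 2 only, with a fold of 5.0006 (3.56 to 6.84) from 37 reads and its summit 190 bp after the start. That pileup is above the replicate 2 pileups of all 3 BBS genes with a shared region, and the nearest replicate 1 peak lay 31065 bp away. The local background at Bbs2 was 6.60 reads, against 3.08 at Bbs4, 2.65 at Bbs10 and 7.92 at Mkks. The Bbs2 fold lay below that of Bbs4 (6.37) and above those of Bbs10 (4.39) and Mkks (3.70). Ttc8, also a BBSome subunit, had a replicate 2 peak with a fold of 4.44 (2.82 to 6.67), 115 bp before the start. Arl6, the small GTPase that recruits the BBSome to membranes, had one with a fold of 5.0005 (3.33 to 7.24), 22 bp before the start, and Bbs5 one with a fold of 4.07 (2.59 to 6.13). These replicate 2 peaks thus stood at the promoters and at folds like those of the shared regions.

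Bbs1, the subunit with the commonest human mutation of the syndrome, held no peak; the nearest lay 7940 bp away in replicate 1 and 7996 bp in replicate 2. Alms1, a basal body protein mutated in Alström syndrome, held none either, with the nearest peaks 135606 and 135533 bp away.

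The regions at Cep95 and Cep350 had the best ranks of the 17 by the worse rank in the lists; Cep135 followed after Ift46. The region at Cep95, which encodes a centrosomal protein, ranked 39 of 3943 and 20 of 6403 (chr11:106787269-106789313). It had a fold of 9.96 (7.09 to 13.6) in replicate 1 and one of 12.8 (10.1 to 16.1) in replicate 2, with pileups of 37 and 74 reads and summits only 5 bp apart. Both summits were well before the annotated Cep95 start of the promoter table (1500 and 1495 bp). An annotated start of Ddx5, the RNA helicase gene on the other strand, was nearer (742 and 737 bp). By gene ends the order was the reverse, with the region's midpoint 349 bp from Cep95 and 894 bp from Ddx5. The region spanned 2045 bp, the widest of the 17, and covered starts of both genes. The annotated Cep95 start was covered by the replicate 1 peak only, since the replicate 2 peak ended before it. The 5′ gene end of Cep95 (chr11:106788640) lay before that start, and the peaks of both lists covered it.

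Cep350, a large centriolar protein that anchors microtubules, had a region over its gene end (chr1:155972711-155973948) with a fold of 7.49 (5.23 to 10.4) in replicate 1 and one of 11.0 (7.88 to 14.9) in replicate 2. Its ranks were 140 and 168, the midpoint lay 59 bp from the gene end, and no other protein-coding gene end lay within 3 kb. Cep135, a protein of the centriole cartwheel, had folds of 8.32 (5.54 to 12.1) and 7.27 (5.13 to 10.03), ranks of 176 and 513, and summits 220 and 125 bp after its start (chr5:76588507-76589282). It too stood alone within 3 kb. These were the Cep genes in which a strong region lay at the gene's own end with no neighbouring gene end.

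At Cep170, a protein of the appendages of the mother centriole, the shared region (chr1:176814269-176815073) lay beside another centrosome gene. Its midpoint was 692 bp from Cep170 and 11 bp from an end of Sdccag8, a centriolar satellite gene that is itself mutated in Bardet-Biedl syndrome. The folds were 4.11 (2.41 to 6.61) in replicate 1 and 5.83 (4.17 to 7.94) in replicate 2. Replicate 2 alone had a further peak 77 bp after the Cep170 start, with a fold of 6.62 (4.44 to 9.52). The region at Cep57, a pericentriolar protein (chr9:13826355-13828029, pileups of 13 and 41 reads), had folds of 4.32 (2.44 to 7.16) and 9.61 (6.96 to 13.0), and its summits lay 695 bp apart, in replicate 1 at the Cep57 start (24 bp) and in replicate 2 nearer the start of Fam76b (110 bp), on the other strand.

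The Cep regions that follow had worse ranks by that measure, although Cep68 and Cep57l1 had higher folds in replicate 1 than Cep170 and Cep57. Cep250, a linker protein that holds the centrioles together, had folds of 3.85 and 3.98 with summits 139 bp after and 7 bp before its start. Cep68, which takes part in the same linker, had folds of 5.55 and 3.996, Cep120, needed for centriole growth, 3.92 and 4.91, and Cep57l1, a relative of Cep57, 4.44 and 3.33.

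In replicate 1 alone Cep131, Cep170b, Cep41, Cep76 and Cep85l had a peak, with folds of 4.01, 5.24, 3.59, 4.32 and 4.32 in that order. A further 11 Cep genes had one in replicate 2 alone, of which Cep44 had the highest fold, 7.13 (4.71 to 10.4), and Cep63 the best rank, 759. Cep290, a transition zone protein whose loss causes several ciliopathies with obesity in some, held no peak. The nearest lay 13352 bp away in replicate 2.

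Among the Dnaaf genes, Dnaaf5 and Dnaaf2 held regions. Dnaaf5 encodes a HEAT-repeat protein, and its region (chr5:139149944-139150591) had a fold of 5.55 (3.36 to 8.70) in replicate 1 and one of 4.24 (2.67 to 6.44) in replicate 2, with summits 171 and 109 bp after the start. Prkar1b, a protein kinase A subunit gene on the other strand, begins 570 bp from it. Dnaaf2, the HSP90 cochaperone also called kintoun, had folds of 3.996 (2.21 to 6.75) and 4.51 (2.73 to 7.08). Its summits agreed to 1 bp, 1025 and 1024 bp after the annotated start (chr12:69196914-69197550), inside the gene. Dnaaf1 had a peak in replicate 2 alone (fold 5.49, 3.41 to 8.41), and Dnaaf3, Dnaaf4, Dnaaf6 and the X-linked Dnaaf6b had none.

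**Figure D2:**
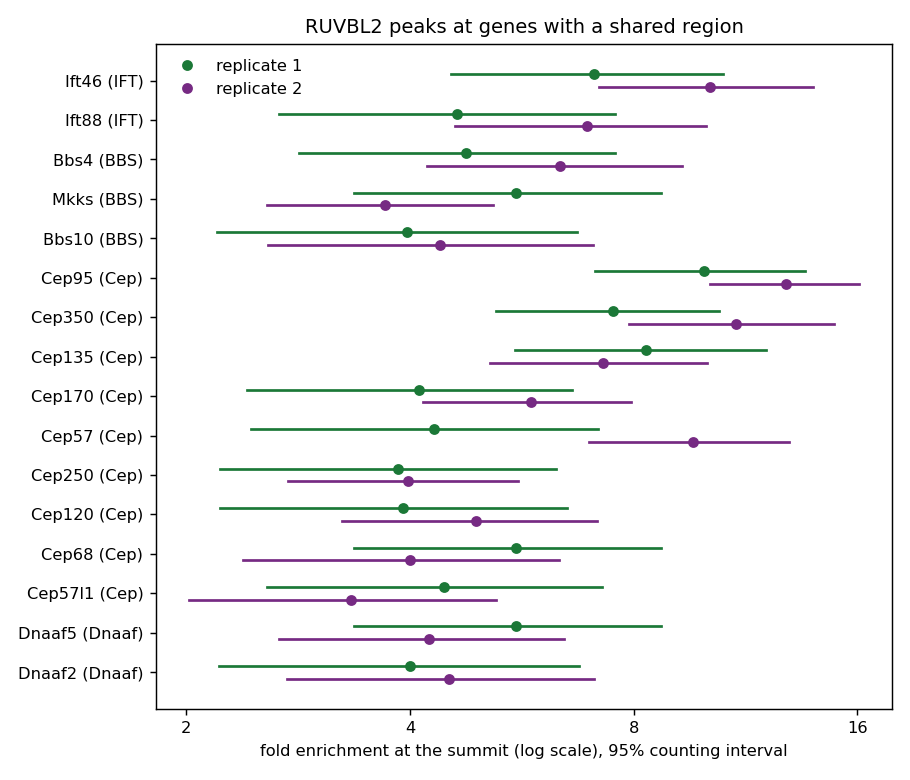
Fold enrichment at the summit (horizontal axis, log scale) with exact Poisson 95% counting intervals for the genes with a shared region that are reported by name, by family, in replicate 1 (green) and replicate 2 (purple). Cep95, Cep350, Cep135 and Ift46 lie at folds above 7 in both libraries, and the other genes lie between 3.33 and 6.91, except Cep57 at 9.61 in replicate 2.

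Over the 17 genes the median fold was 4.62 in replicate 1, against 5.09 over all genes with a shared region, and 5.83 in replicate 2, against 5.38. The pileups ran from 12 to 37 reads in replicate 1 and from 15 to 74 in replicate 2. The median of the worse of a region's ranks was 3060, against 2739 over all 3111 shared regions, and 6 of the 17 stood at or under that median. The fold was higher in replicate 2 for 12 of the 17, a count with no share over all genes beside it. The summits of the libraries lay a median of 95 bp apart, with a range of 1 to 995 bp, where each list is represented by its best-ranked peak in the region. The 995 bp are those of Mkks, whose other replicate 1 summit lay 123 bp from that of replicate 2; between nearest summits the widest gap was 695 bp, at Cep57.

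Most regions stood at or near transcription starts. Strand and starts were in the promoter table for 14 of the 17 genes, and in each of these the gene end nearer to the region was the 5′ one. That count has no share over all genes beside it and does not mark these genes out. The region covered an annotated start in 10 of the 14 (71.4%), against 73.9% of all genes with a shared region and a start in the table. The exceptions were Ift46, Cep170, Cep57l1 and Dnaaf2. A region joins peaks of both lists, and in some of the 10 a single list reached the annotated start. At Cep95 this was replicate 1, and at Mkks and Bbs4 it was replicate 2. In replicate 2, 17 of the 19 peaks of genes found in that list alone and with a start in the table had their summit within 1 kb of it; the others were those of Cep112 and of Ift74, whose peak lay 52 bp from the gene end. Genes with a peak in replicate 1 alone had 6 of 6 such peaks within 1 kb. No share over all genes stands beside these counts of peaks in 1 list, so they do not mark these genes out. The peaks of Cep41 and Cep70 lay 17126 and 59896 bp from the nearer gene end. Their summits still lay 335 and 157 bp from an annotated start inside the gene.

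**Figure D3:**
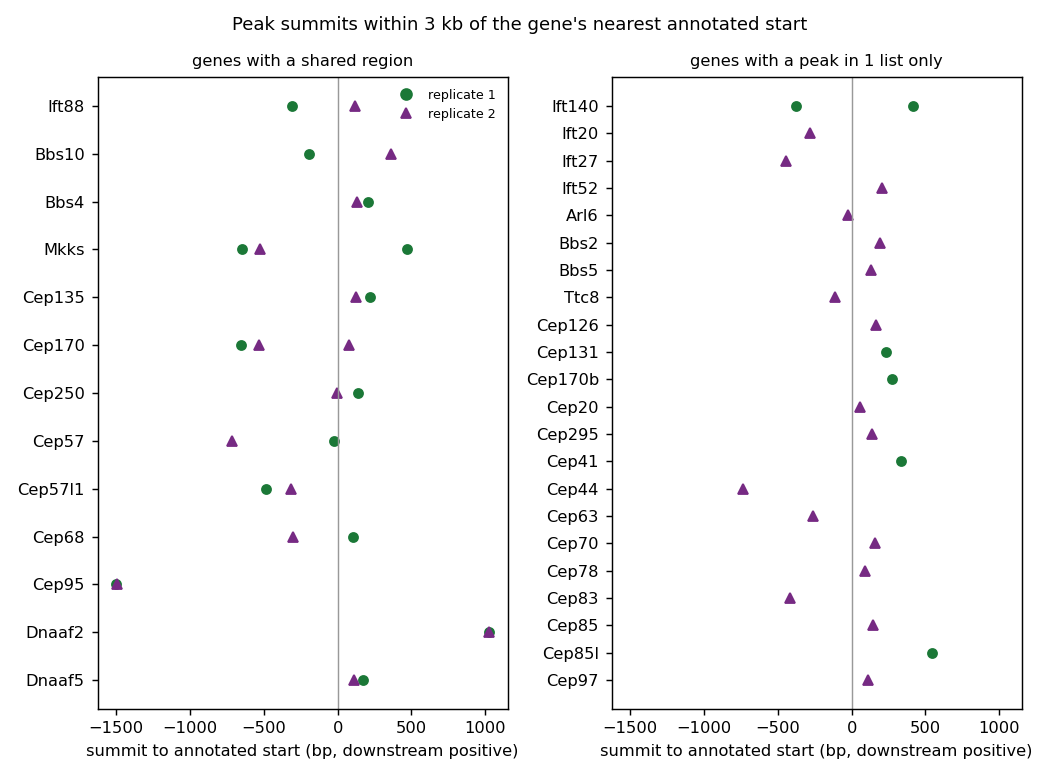
Distance from each peak summit to the nearest annotated start of the gene (horizontal axis, bp, downstream positive), for genes with a shared region (left) and genes with a peak in 1 list only (right), in replicate 1 (green circles) and replicate 2 (purple triangles); peaks over 3 kb away and genes with no start in the table are not drawn. Most summits lie within 1 kb of the start in both panels, while Cep95 lies 1500 bp before it and Dnaaf2 1025 bp after it in replicate 1.

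Several regions were held in common with a neighbour. Of the 17, 9 (52.9%) also lay within 3 kb of another protein-coding gene end, against 40.5% of all genes with a shared region. The pairs Mkks with Slx4ip, Cep95 with Ddx5, Cep57 with Fam76b, Cep57l1 with Sesn1 and Dnaaf5 with Prkar1b made up 5 of these 9. In them the genes start on opposite strands, with 5′ gene ends within 1 kb of each other. A peak there cannot be given to either gene. Strands were not at hand for some of the other pairs, such as Ift46 with Arcn1 and Cep170 with Sdccag8, so the 9 may hold more such pairs. The share of such pairs over all genes with a shared region is not given here. With each region given to the nearest gene end only, 13 of the 71 genes held one (18.3%), against 13.7% of all protein-coding genes. The genes lost were Ift46, Cep170, Cep57 and Cep57l1.

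Gene length and promoter composition differed between these genes and the rest. The 71 genes are long, with a median of 38113 bp, against 17217 bp for all protein-coding genes. Among genes under 20 kb, 4 of 17 (23.5%) held a shared region, against 13.5% of all genes of that length; from 20 to 60 kb 8 of 29 (27.6%) did, against 21.9%; and from 60 kb up 5 of 25 (20%) did, against 21.02%. Promoters were in the table for 61 of the 71. Of these, 45 (73.8%) had a CpG-rich promoter, against 44.1% of all genes with one in the table, where CpG-rich means a GC content of at least 55% and an observed-to-expected CG ratio of at least 0.6 in the same window. Among genes with a CpG-rich promoter, 12 of 45 (26.7%) held a shared region, against 31.4% of all such genes, and 60% had a peak in replicate 2, against 56.7%. Among genes without such a promoter 2 of 16 (12.5%) held a shared region, against 6.84% of all such genes, and among the 10 genes with no promoter listed, 3 (30%) did, against 15.2% of all such genes. The part of gene length and promoter composition in the count was not tested.

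**Figure D4:**
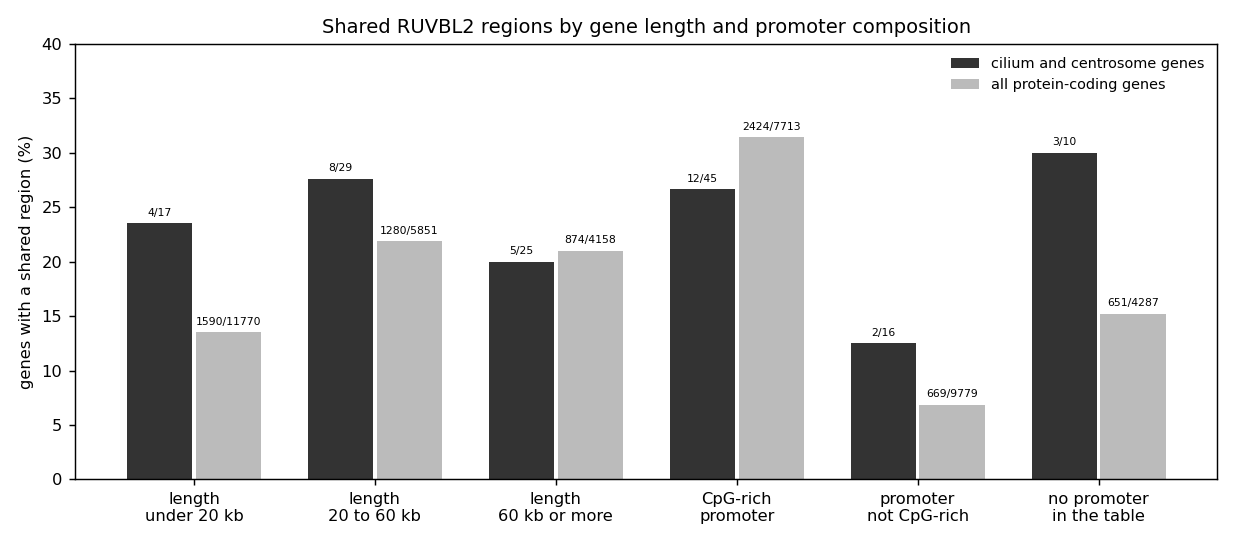
Share of genes with a shared region (vertical axis, percent) among the 71 cilium and centrosome genes (black) and all protein-coding genes (grey, with the 71 included), by gene length and by promoter composition; the labels give genes with a region over genes in the class. The black bar is the lower one for genes of 60 kb or more (20%, against 21.02%) and for CpG-rich promoters (26.7%, against 31.4%), and the higher one in the other 4 classes, such as genes with no promoter in the table (30%, against 15.2%).

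The letters GTTGCC were commoner in promoters of these genes, at like shares with and without a shared region; the full X-box was not searched. A gene with several annotated starts counts once per promoter, so the 69 promoters belong to 61 genes, and the 17 promoters with a shared region to 14. GTTGCC stood in 22 of the 69 promoters (31.9%), against 12.6% of 21263 promoters of protein-coding genes in the same 300-base windows. These shares were not matched for promoter composition, in which these genes differed from the rest. CCAAT (50.7% of the 69, against 38.2%) and CCGGAAG (17.4%, against 11.6%) were also commoner. GCGCATG stood in 5.80%, against 4.80%, and CACGTG was rarer, in 4.35%, against 7.84%. By family GTTGCC stood in 5 of 11 Ift, 3 of 12 BBS, 9 of 39 Cep and 5 of 6 Dnaaf promoters. It was in 5 of 17 promoters (29.4%) of genes with a shared region and in 17 of 52 (32.7%) of genes without one. CCAAT stood in 10 of 17 promoters of genes with a region and 25 of 52 without one, against 38.2% of all. CCGGAAG stood in 4 of 17 and 8 of 52, against 11.6% of all, GCGCATG in 2 of 17 and 2 of 52, against 4.80%, and CACGTG in 0 of 17 and 3 of 52, against 7.84%.

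Other genes of the same structures, in 5 lists that hold none of the 71, held shared regions at a like share, 29 of 125 (23.2%), against 17.2% of all protein-coding genes. Of 37 further centriole and centrosome genes, 13 (35.1%) held one: Haus1, a subunit of the augmin complex, had a fold of 9.07 (6.39 to 12.5) in replicate 1 and one of 6.99 (5.16 to 9.28) in replicate 2, Akap9, a scaffold of the centrosome and Golgi, 6.16 and 7.67, and Pcm1, the core of centriolar satellites, 5.24 and 7.40. Of 22 IFT, motor and associated genes under other symbols, 7 (31.8%) did. Wdr34, an intermediate chain of the dynein that drives IFT, had 11.1 (7.82 to 15.3) and 5.72 (4.21 to 7.61), Tctex1d2, a light chain of the same motor, 5.29 and 6.13, and Ttc21b, an IFT-A subunit, 4.87 and 6.20.

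Of 23 transition zone and nephronophthisis genes, 3 (13.04%) held a shared region: Ahi1, a Joubert syndrome gene strongly expressed in the hypothalamus, with folds of 8.63 (5.79 to 12.4) and 11.3 (8.47 to 14.8), Tmem17 with 7.44 and 7.17, and Tmem216 with 6.78 and 4.90. Among 14 BBS-associated and obesity-linked cilium genes, 3 did, namely Sdccag8, whose region is the one at Cep170, Bbip1 (5.13 and 4.08), a small BBSome subunit, and Wdpcp (4.27 and 3.89). Adcy3, the adenylyl cyclase of neuronal cilia, and Mchr1, a ciliary receptor of melanin-concentrating hormone, had no peak in either list. Of 29 motile cilium and dynein assembly genes, 3 (10.3%) did: Rfx3, an RFX factor that drives ciliary genes, with folds of 6.44 (4.14 to 9.60) and 10.8 (7.79 to 14.5), Pih1d2, a relative of Dnaaf2, with 5.48 and 4.47, and Dnaic1, an axonemal dynein chain, with 3.70 and 6.03. The Rfx3 region lay 3139 bp inside the gene.

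The lists of cell type markers are short, and their counts stand beside shares over all protein-coding genes of 17.2% for a shared region and 32.6% for a replicate 2 peak, from which so few genes cannot be told apart. Of 8 markers of the ciliated ependymal cells none held a shared region, which allows a share of up to 37.5%, and 1 had a peak in replicate 2. One of 6 tanycyte and 1 of 8 neuronal markers held a region, Col23a1 and Rbfox3. That of Rbfox3 lay 80272 bp from the nearer gene end, inside the gene. None of the 5 astrocyte, 5 oligodendrocyte, 5 microglial and 4 endothelial markers held one, which allows up to 60% and, for endothelial cells, 75%. These limits come from a rough rule for long lists and are too wide for lists this short. The rule also treats the markers as independent draws, which hand-picked genes are not. Which cells carried the peaks at the cilium genes was not measured.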

How the data were processed

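RUVBL2 ChIP-seq of mouse hypothalamus was analysed from the peak and summit lists that the authors deposited, 1 of each per ChIP library. Per the submitters' processing notes, MACS2 2.1.0, Bowtie2 2.3.4.1, Trimmomatic 0.33, bcl2fastq 2.17 and ChIPseeker were used with GRCm38; the settings and the caller's control are not stated there. The deposited lists hold, per peak, a fold enrichment (a ratio), a −log10 p, a −log10 q and a score, the whole-number part of 10 × −log10 q. The deposited summit lists repeat the −log10 q.

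Summit pileup and background were solved from fold and −log10 p; a whole-number pileup matched 100% of peaks in replicate 1 and 99.98% in replicate 2 within a relative tolerance of 0.0001. Tested on 1915 simulated peaks, this recovered 100%. Library totals were not at hand, so the pileups are the only measure of depth. Genes came from RefSeq on GRCm38.p6, leaving out genes in the opening 3 Mb gap of each chromosome but Y; strand and starts came from its promoter table, which held 61 of the 71 genes. Python 3.11.15, pandas 2.3.3 and scipy 1.17.1 were used.

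Named genes were those with a shared region, of which 1 is counted but not reported here by name, with fuller values for up to 5 per family by the worse of their ranks and for 9 genes of interest; in other lists up to 3 genes were named. Cep44, Cep63 and other genes with a peak in replicate 2 only were picked after their values were seen. Members and lists were chosen with earlier results of these data known. No test was made between genes or families. Alternatives changed the overlap, the threshold, the window, the placing and the libraries used.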

Additional observations from a re-analysis of the deposited data

How the results depend on the processing

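No paired analysis was possible because the input libraries have no peak list here and the ChIP libraries form 1 group. Of 45 alternative counts, 33 stayed within 1.5 times those reported. With a −log10 q of at least 5, shared regions remained at 6 of the 71 genes (1 Ift, 1 BBS, 3 Cep and 1 Dnaaf), against 8.50% of all protein-coding genes. The Ift count was also 1 with summits within 250 bp, with the body widened by 1 kb and with the nearest gene only. With 1 list left out, the count of genes with a peak ran from 23 (replicate 2 left out) to 38 (replicate 1 left out) over all 71, from 3 to 7 for Ift, from 3 to 7 for BBS, from 15 to 21 for Cep and from 2 to 3 for Dnaaf genes. Overlap of 50%, any overlap with the widened body and gene ends only each kept the same 17 genes (23.9%), against 16.6%, 17.3% and 16.0% of all protein-coding genes. Summits within 250 bp lost Ift88, Bbs10, Cep57 and Cep68, leaving 13 (18.3%), against 14.3%. With the body widened by 1 kb 16 genes (22.5%) remained, against 16.2%. Pileups of 12 to 37 reads in replicate 1 limit what a missing peak shows.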
